A study of Mus musculus with 6 samples.

Results

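Collagens, laminins and their associated matrix genes were read on liver arrays as 116 probe sets of 69 genes, of 12393 genes measured in all. The members were every probe set that the platform annotation gives to exactly 1 gene whose symbol marks a collagen chain, laminin chain, fibrillin, fibulin, TIMP, lysyl oxidase or nidogen, together with Sparc, Dcn, Lum, Postn, Bgn, Fn1, Tnc and Hspg2. The rule uses symbols and no measured value. By role they fell into 9 fibrillar collagens, 21 basement membrane genes, 19 other collagens, 5 elastic fibre genes, 7 proteoglycans and glycoproteins, and 8 remodelling genes.

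The transgenic group was 3 mice in which a conditional Tcfeb (Tfeb) overexpression allele had been combined with an Alb-Cre line, and the wild-type group was 3 mice. All livers were taken at postnatal day 9, and each liver gave 1 array. Cre in this line is driven by the albumin promoter, which is active in hepatocytes, and the labels call the arrays biological replicates without describing the transgene further or giving the wild-type mice a Cre or floxed allele. Levels are the deposited log2 expression values, group levels are mean ± SD (n = 3 arrays each), and a difference is the transgenic mean less the wild-type mean, with its standard error (SE) from limma.

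The extracellular matrix is the protein scaffold around cells. Fibrillar collagens assemble into tensile fibres, and in liver they are made mainly by stellate cells, portal fibroblasts and other mesenchymal cells. Basement membranes are thin sheets of laminin and type IV collagen networks joined by nidogen and perlecan, and they lie under bile duct epithelium and around blood vessels, while the hepatic sinusoid normally has only a sparse one. Lysyl oxidases cross-link collagen and elastin, metalloproteinases cut matrix proteins, and TIMPs inhibit the metalloproteinases.

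Several facts of the whole series bear on these values. Pearson's r across probe sets ranged from 0.977 to 0.979 between arrays of different groups and from 0.994 to 0.997 within a group. One library stood apart in its sex-linked transcripts: the inactive-X transcript Xist had a level of 5.58 in transgenic replicate 1 and 13.03 to 13.19 on the other 5 arrays. The Y-linked Eif2s3y read 9.32 in transgenic replicate 1 and 3.06 to 3.43 on the other 5. By these transcripts that liver read as male and the others as female. Tfeb itself read 6.50 ± 0.13 in transgenic and 6.71 ± 0.18 in wild-type livers (limma, adjusted p = 0.168), and whether its probe set reads the transgene is not known. The 14 probe sets of the bacterial hybridisation controls had a median difference of -0.37. Scaling the arrays to those controls moved the median difference of all genes to 0.33, from -0.04 on the deposited scale, so each direction below is relative to the deposited scale. In whole liver RNA, fewer cells of a type and less RNA per cell cannot be told apart.

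Matrix gene expression in the transgenic livers differed little from wild type for most genes, with 1 large exception. Timp1, a secreted inhibitor of metalloproteinases, was higher by a ratio of readings of 3.94, against wild-type readings whose background is not known. The major fibrillar collagens Col1a1, Col1a2 and Col3a1 did not pass the test. Of the 69 genes, 5 rose (Timp1, Lamb2, Timp3, Sparc and Col4a1), 19 fell and 45 did not pass a limma adjusted p of 0.05, taken over all 12393 genes. Of all genes tested, 40.3% passed in either direction, 19.9% higher and 20.4% lower, against 24 of 69 matrix genes in either direction. Those shares of all genes stand beside each count of calls below from this limma fit, unless another share is given. The median difference was -0.12 over the matrix genes and -0.04 over all genes. With the arrays scaled to the bacterial controls 28 matrix genes were higher and 0 lower, and their median was 0.25. That scaling shifts every gene of an array alike, so the gap between this median and that of all genes is fixed.

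The size of the changes was small. A change of at least 2-fold was passed by 1 matrix gene, Timp1, against 5.18% of all genes (2.53% higher and 2.65% lower). For 30 of the 69 matrix genes the transgenic and wild-type ranges were separate, against 53.7% of all genes. Among the 36 members whose mean level lay above that of the dimmest 40% of genes (a log2 level of 6.63), 3 rose and 10 fell, where 28.5% of all such genes rose and 20.3% fell. Of the 33 dimmer members 2 rose and 9 fell, where 6.96% of all dim genes rose and 20.5% fell. The deposited values carry no detection calls, so whether a dim member was above background is not known.

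**Figure D1:**
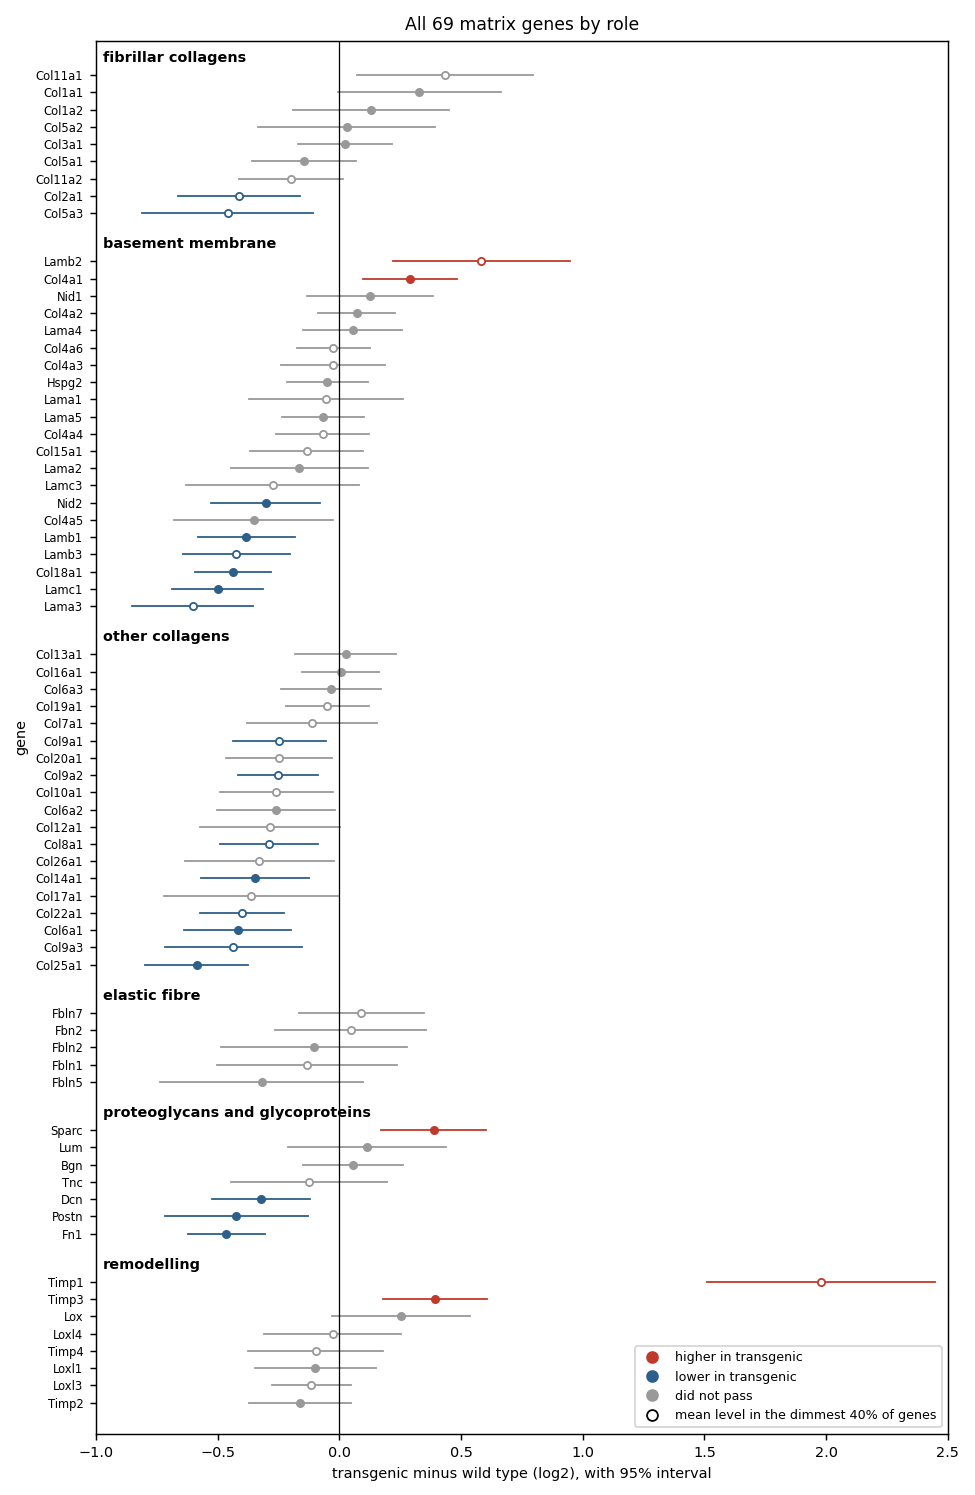
Difference between transgenic and wild-type livers (log2, horizontal axis) with its 95% interval for each of the 69 matrix genes, grouped by role. Red points were higher, blue points lower and grey points did not pass, open points have a mean level among the dimmest 40% of genes, and Timp1 at 1.98 lies apart from the rest, all directions being on the deposited scale.

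Fibrillar collagens showed 0 genes higher and 2 lower of 9, with 7 not passed and a median difference of 0.02, and with scaling to the bacterial controls 4 were higher and 0 lower. At an unadjusted limma p of 0.05, 1 fibrillar gene was higher (Col11a1) and 2 were lower. Of all genes, 23.6% were higher and 26.3% lower at that limit, shares that apply to each unadjusted count below. Col3a1, the type III chain of reticular fibres, read 12.34, 12.56 and 12.39 on the transgenic arrays and 12.33, 12.49 and 12.40 on the wild-type arrays. The groups overlapped almost completely, and the difference was 0.02 (95% interval -0.17 to 0.22). Col1a2, a type I chain, read 11.48, 11.84 and 11.31 in transgenic livers and 11.40, 11.54 and 11.29 in wild-type livers, a difference of 0.13 (SE 0.14, adjusted p = 0.478). The other type I chain, Col1a1, was named after its values were seen: it read 8.49, 9.01 and 8.53 in transgenic livers, against 8.48, 8.27 and 8.30 in wild-type livers. Each transgenic value was the higher one, transgenic replicate 2 stood above the other two transgenic arrays, and the difference of 0.33 (SE 0.14) had an adjusted p of 0.106 in the limma fit.

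The type V chains sit inside type I fibrils and set their diameter. Col5a2 differed by 0.03 (95% interval -0.33 to 0.39) and Col5a1 by -0.15 (95% interval -0.36 to 0.07). Another Col5a1 probe set was called lower (-0.47, adjusted p = 0.00283 over all probe sets), as was the mean of its sets (-0.26, adjusted p = 0.0292). Col5a3, on dim readings, fell to 6.01 ± 0.32 in transgenic livers, against 6.46 ± 0.10 in wild-type livers. The difference was -0.46 (SE 0.15, limma adjusted p = 0.0437). That call was lost in 5 of the 6 fits that left out 1 array, being kept without transgenic replicate 1, and over the mean of both its probe sets (-0.21, adjusted p = 0.0715). Col2a1, the cartilage collagen, fell to 4.31 ± 0.17 in transgenic livers, against 4.72 ± 0.13 in wild-type livers, both dim readings. Its call was lost without transgenic replicate 2, transgenic replicate 3 or wild-type replicate 2 (adjusted p = 0.0585, 0.0513 and 0.0622). Of the remaining type XI chains, named after their values were seen, Col11a1 read 0.43 higher (adjusted p = 0.0581) and Col11a2 read -0.20 (adjusted p = 0.124).

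Basement membrane genes went both ways, as 2 of 21 rose, 6 fell and 13 did not pass. Their median difference was -0.07 (10 higher and 0 lower with scaling to the bacterial controls). The 2 that rose were the laminin beta 2 chain gene Lamb2 and the type IV collagen gene Col4a1. The 6 that fell were the laminin genes Lama3, Lamc1, Lamb3 and Lamb1, Col18a1 and the nidogen gene Nid2.

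Laminins are cross-shaped trimers of an alpha, a beta and a gamma chain. Of the 10 laminin genes measured, 1 rose and 4 fell. Lama3, the alpha chain of an epithelial laminin, read 4.79, 4.84 and 4.68 in transgenic livers and 5.58, 5.18 and 5.36 in wild-type livers. The groups did not overlap, all 6 readings were dim, and the gene fell by 0.60 (SE 0.11, adjusted p = 0.00365). Lamb3, the beta chain of the same trimer, fell by 0.42 (SE 0.09), to 4.95 ± 0.17 in transgenic livers against 5.37 ± 0.02 in wild-type livers, also dim readings. Lamc1, the gamma chain of most laminins, read 7.40, 7.52 and 7.34 in transgenic livers and 7.83, 8.02 and 7.90 in wild-type livers. It fell by 0.50 (SE 0.08, adjusted p = 0.00241) on its brighter probe set and read -0.19 (SE 0.08) on the dimmer one, which did not pass.

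The alternative beta chains Lamb1 and Lamb2 were called in opposite directions. Lamb1 fell to 8.72 ± 0.07 in transgenic livers, against 9.10 ± 0.13 in wild-type livers (-0.38, adjusted p = 0.00991). This call rests on 1 of 3 probe sets. Without probe sets whose names end in _s_at, _x_at or _a_at, Lamb1 read -0.18 (adjusted p = 0.247). Lamb2 read 6.08, 6.41 and 5.96 in transgenic livers and 5.61, 5.80 and 5.30 in wild-type livers. Every transgenic value was above every wild-type value, although all 6 readings, from its only probe set, were dim. The gene rose by 0.58 (SE 0.16, adjusted p = 0.0209). The call was lost without transgenic replicate 2 (0.45, adjusted p = 0.0618) or wild-type replicate 3 (0.45, adjusted p = 0.0543). Of the other laminins, Lama1, Lama2, Lama4, Lama5 and Lamc3 did not pass on their brightest probe sets. Of these, only Lama5 fell under the naming rule and the others are named after their values were seen. Lama5, the alpha chain of adult vascular basement membranes, differed by -0.07 (95% interval -0.23 to 0.10) and Lama4, an alpha chain of endothelial basement membranes, by 0.05 (95% interval -0.15 to 0.26).

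Type IV collagen, the network collagen of basement membranes, was measured for all 6 of its chains, and 1 passed. Col4a1 read 11.14, 11.36 and 11.15 in transgenic livers and 10.99, 10.89 and 10.89 in wild-type livers. The groups did not overlap and the gene rose by 0.29 (SE 0.08, adjusted p = 0.0263), a 1.22-fold change. Its partner chain Col4a2, with which it forms the common type IV trimer, read 9.53, 9.59 and 9.63 in transgenic livers and 9.59, 9.48 and 9.47 in wild-type livers. Here the groups overlapped and the difference was 0.07 (95% interval -0.09 to 0.23). The Col4a1 call was lost without transgenic replicate 2, wild-type replicate 2 or wild-type replicate 3 (adjusted p = 0.0811, 0.0794 and 0.0724), and with the mean of its probe sets (0.20, adjusted p = 0.0531). The difference between the partners was not tested. The remaining chains are named after their values were seen: Col4a5 did not pass (-0.35, adjusted p = 0.0823), and Col4a3, Col4a4 and Col4a6 lay between -0.07 and -0.02 on dim readings. Over the mean of their probe sets, Col4a5 (-0.36, adjusted p = 0.0202) and Col4a6 (-0.29, adjusted p = 0.0168) were called lower, the second Col4a6 set reading -0.55.

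Col4a1 and Col4a2 lie head to head, and the promoter windows of the pair are shown because only Col4a1 of these neighbours passed the test. Each window holds 250 bases before the gene's start and 50 after it, on the strand of the gene, from RefSeq (GRCm38.p6). The windows overlap by 78 bases, from 11312777 to 11312854 on chromosome 8. Capitals mark GGGCGG or its reverse complement, the box bound by SP1-family factors, searched on both strands.
Col4a1, chr8:11312777-11313076, minus strand: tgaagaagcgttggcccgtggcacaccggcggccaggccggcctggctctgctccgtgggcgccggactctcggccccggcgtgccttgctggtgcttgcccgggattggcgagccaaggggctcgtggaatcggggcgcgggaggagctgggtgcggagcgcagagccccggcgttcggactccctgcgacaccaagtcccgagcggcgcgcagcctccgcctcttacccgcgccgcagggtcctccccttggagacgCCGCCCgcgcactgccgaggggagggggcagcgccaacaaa
Col4a2, chr8:11312555-11312854, plus strand: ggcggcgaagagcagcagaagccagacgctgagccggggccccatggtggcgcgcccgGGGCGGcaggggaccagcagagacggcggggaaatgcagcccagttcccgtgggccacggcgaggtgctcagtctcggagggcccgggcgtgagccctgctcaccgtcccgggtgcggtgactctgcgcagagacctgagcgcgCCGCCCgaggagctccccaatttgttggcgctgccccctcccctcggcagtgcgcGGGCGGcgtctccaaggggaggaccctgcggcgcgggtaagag
The box was found 1 time in the Col4a1 window and 3 times in the Col4a2 window, and 1 match is the same stretch read on opposite strands.

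Linker and heparan sulfate components of the basement membrane read close together in the 2 groups or fell. Col18a1, a collagen that carries heparan sulfate chains and is the source of endostatin, read 11.62, 11.74 and 11.60 in transgenic livers and 12.10, 12.08 and 12.08 in wild-type livers. All transgenic arrays lay below all wild-type arrays, the gene fell by 0.44 (SE 0.07, adjusted p = 0.00188), and both its probe sets were called lower. Nid2, a nidogen that bridges laminin and type IV collagen, fell by 0.30 (SE 0.10, adjusted p = 0.0394), a call lost in 4 of the 6 fits without 1 array, while it was kept without transgenic replicate 1 or wild-type replicate 1. Nid1, the more widespread nidogen, differed by 0.13 (95% interval -0.13 to 0.39). Hspg2, which encodes perlecan, differed by -0.05 (95% interval -0.22 to 0.12), although its second probe set was called lower (-0.39, adjusted p = 0.0101 over all probe sets), as was the mean of both (-0.22, adjusted p = 0.0321).

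Markers of endothelial cells, which build vascular basement membranes, were 1 higher (Lyve1) and 4 lower of 10. Their summed level, on the linear scale of the deposited values, was 3960 to 4276 in transgenic and 4418 to 4709 in wild-type livers. Kdr, a VEGF receptor, fell by 0.38, Cdh5, the endothelial cadherin, fell by 0.38, and Lyve1, a hyaluronan receptor of the sinusoid, rose by 0.40. The part of these cells in the basement membrane values was not tested.

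**Figure D2:**
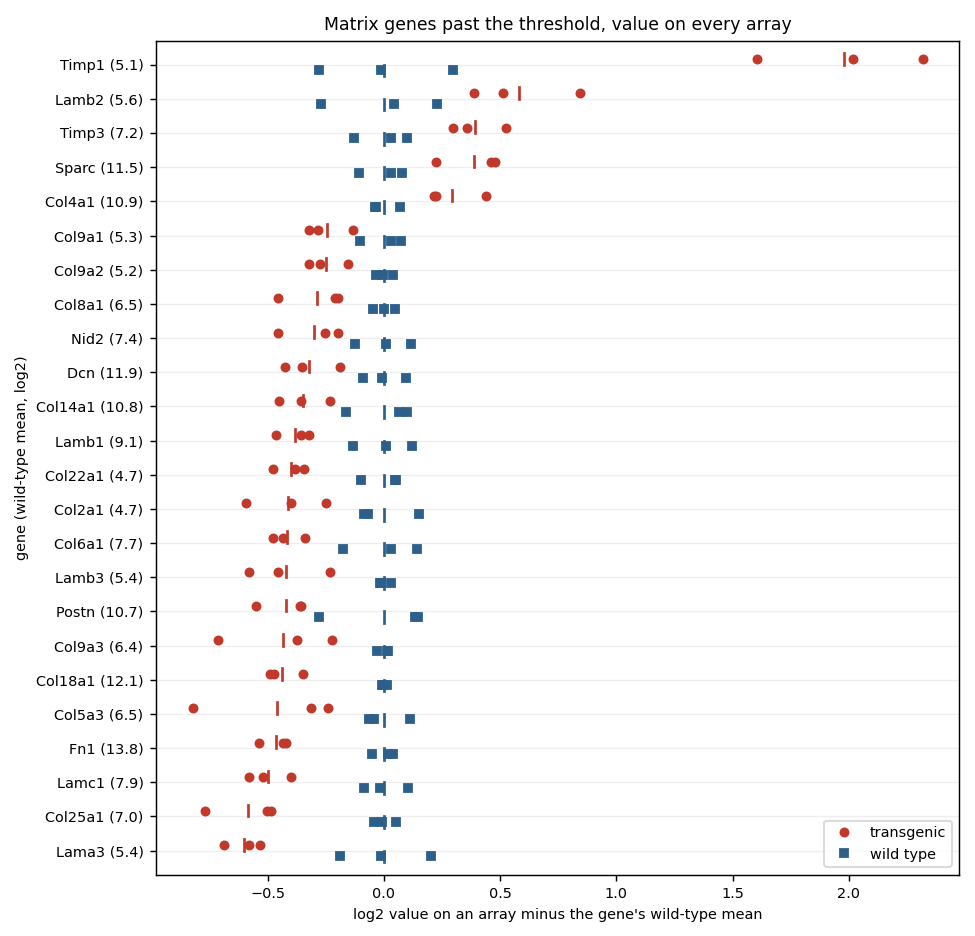
Log2 value on each array minus the gene's wild-type mean (horizontal axis) for the 24 matrix genes past the threshold, with transgenic arrays as red circles above wild-type arrays as blue squares and vertical ticks at the group means. The groups do not overlap in any row, but the rows were chosen by the test on these same arrays. Over all matrix genes the ranges were separate for 30 of 69, against 53.7% of all genes. On the deposited scale 5 genes lie to the right and 19 to the left.

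Collagens outside the fibrils and the basement membrane showed 0 higher and 8 lower of 19, with 11 not passed and a median difference of -0.26, but 4 higher and 0 lower with scaling to the bacterial controls. At an unadjusted limma p of 0.05 the counts were 0 higher and 13 lower, against 23.6% and 26.3% of all genes. Col25a1, a transmembrane collagen first known from brain plaques, read 6.22, 6.49 and 6.50 in transgenic livers and 6.98, 6.95 and 7.04 in wild-type livers. The gene fell by 0.59 (SE 0.09, adjusted p = 0.00202) with no overlap between groups. Col6a1, a chain of beaded microfilaments, fell to 7.27 ± 0.07 in transgenic livers, against 7.69 ± 0.16 in wild-type livers (-0.42, adjusted p = 0.0107). Its partner chains Col6a2 and Col6a3 differed by -0.26 (adjusted p = 0.0821) and by -0.03 (95% interval -0.24 to 0.17) and did not pass.

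Col14a1, a fibril-associated collagen, was the brightest of this group. It fell to 10.44 ± 0.11 in transgenic livers, against 10.79 ± 0.14 in wild-type livers (-0.35, adjusted p = 0.0231), and both of its probe sets were called lower. The call was lost in 4 of the 6 fits without 1 array, those without transgenic replicate 1 or 3 or wild-type replicate 2 or 3 (-0.34 to -0.29, adjusted p = 0.0661 to 0.0754). The other calls were on dim readings, namely Col9a3 (-0.44), Col22a1 (-0.40), Col8a1 (-0.29), Col9a2 (-0.25) and Col9a1 (-0.25). These encode type IX, type XXII and type VIII chains. Of the 6 fits without 1 array, the call was lost in 5 for Col8a1, 4 for Col9a1, and 3 each for Col9a2 and Col9a3. Over the mean of its probe sets Col8a1 read -0.05 (adjusted p = 0.536). Col22a1 kept its call with each array left out, but without probe sets whose names end in _s_at, _x_at or _a_at it read -0.16 (adjusted p = 0.298). The brightest members that did not pass, besides the type VI chains, were Col13a1 (0.03) and Col16a1 (0.01).

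Elastic fibre genes showed 0 of 5 called in either direction by limma, also at an unadjusted p of 0.05, and with scaling to the bacterial controls 2 were higher (Fbln7 and Fbn2). Fbln5, a fibulin needed for elastic fibre assembly, had the widest transgenic spread of these, with 7.86, 8.61 and 8.15 in transgenic livers and 8.35, 8.62 and 8.61 in wild-type livers. The ranges overlapped and the difference was -0.32 (95% interval -0.74 to 0.10). Without transgenic replicate 2 it was -0.52 and called lower (adjusted p = 0.0251), so the count of 0 rests on that array. Fbln2, a fibulin of basement membranes and elastic fibres, differed by -0.10 (95% interval -0.49 to 0.28). The fetal fibrillin gene Fbn2 differed by 0.05 (95% interval -0.26 to 0.36) and Fbln1 by -0.13 (95% interval -0.50 to 0.24).

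Among the 7 proteoglycans and glycoproteins, 1 rose, 3 fell and 3 did not pass, while with scaling to the bacterial controls 3 were higher and 0 lower. Fn1 encodes fibronectin, a plasma protein secreted by hepatocytes and also a tissue matrix protein, and was the brightest matrix gene. It read 13.41, 13.40 and 13.30 in transgenic livers and 13.78, 13.85 and 13.87 in wild-type livers. The groups stood well apart, the gene fell by 0.46 (SE 0.07, adjusted p = 0.00148), and its second probe set read lower by a larger step (-0.89, adjusted p = 0.000645 over all probe sets). Hepatocyte markers had 0 higher and 5 lower of 8 beside it (0 and 6 at an unadjusted limma p of 0.05), with a summed level of 110943 to 112419 in transgenic and 130160 to 130923 in wild-type livers. Tdo2, of tryptophan breakdown, fell by 3.58, Hpd, of tyrosine breakdown, fell by 1.09, and F9, clotting factor IX, fell by 1.07. The markers that did not pass, named after their values were seen, were Alb (0.0007), Ttr (-0.03) and Apob (-0.19), with limma adjusted p of 0.993, 0.677 and 0.0874. The part of hepatocyte RNA in the Fn1 value was not tested.

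Sparc, a collagen-binding matricellular protein of basement membranes and mesenchymal cells, read 12.00, 11.99 and 11.75 in transgenic livers and 11.55, 11.60 and 11.42 in wild-type livers. It rose by 0.39 (SE 0.09, adjusted p = 0.0135), and both of its probe sets were called higher. Without transgenic replicate 2 the value was 0.35 (adjusted p = 0.0510). Dcn, decorin, a small proteoglycan that binds collagen fibrils, fell to 11.54 ± 0.12 in transgenic livers, against 11.87 ± 0.09 in wild-type livers (-0.32, adjusted p = 0.0216). Postn, periostin, a matricellular protein of fibroblasts, fell to 10.32 ± 0.11 in transgenic livers, against 10.74 ± 0.24 in wild-type livers (-0.42, adjusted p = 0.0309). The Dcn call was lost in 4 of the 6 fits without 1 array, being kept without transgenic replicate 1 or wild-type replicate 1. That of Postn was lost in 5, being kept without wild-type replicate 1 only. In the fits that lost the call, the difference was -0.33 to -0.27 for Dcn and -0.46 to -0.35 for Postn. The related small proteoglycans Lum and Bgn differed by 0.11 (95% interval -0.21 to 0.44) and 0.06 (95% interval -0.15 to 0.26), and tenascin, Tnc, by -0.12 (95% interval -0.44 to 0.20).

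Of 13 mesenchymal markers 3 were higher and 3 lower, where 19.9% of all genes were higher and 20.4% lower. Their summed level was 6201 to 7636 in transgenic and 7770 to 8119 in wild-type livers, and without Reln, left out after its values were seen, it was 3828 to 5391 in transgenic and 3038 to 3429 in wild-type livers. Their mean log2 levels overlapped, at 7.65 to 7.84 in transgenic and 7.71 to 7.83 in wild-type livers. Reln, a secreted glycoprotein of quiescent stellate cells, fell by 1.06, whereas Tagln and Acta2, contractile proteins of smooth muscle and activated stellate cells, rose by 0.97 and 0.96. The part of these cells in the collagen and proteoglycan values was not tested.

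Among 8 remodelling genes, 2 were higher, 0 lower and 6 not past the threshold, with a median difference of -0.06, and with scaling to the bacterial controls 5 were higher and 0 lower. At an unadjusted limma p of 0.05 the counts were again 2 higher and 0 lower. Both that rose were TIMPs. Timp1 read 7.42, 7.11 and 6.70 in transgenic livers and 5.08, 5.39 and 4.82 in wild-type livers. Every transgenic array was more than 1 log2 unit above every wild-type array, and the gene rose by 1.98 (SE 0.20, 95% interval 1.51 to 2.45, adjusted p = 0.000257). The wild-type readings were dim. Timp1 is X-linked, and without transgenic replicate 1 it was 1.81 higher (adjusted p = 0.000888).

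Timp3, a TIMP that stays bound to the matrix, read 7.49, 7.55 and 7.72 in transgenic livers and 7.30, 7.23 and 7.07 in wild-type livers. It rose by 0.39 (SE 0.09, adjusted p = 0.0121), and the call was kept with each array left out. Of its 4 probe sets the brightest was called, and the others read 0.23, 0.16 and 0.00. Timp2, the TIMP that takes part in activating MMP2, had 6 probe sets. Its brightest differed by -0.16 (95% interval -0.37 to 0.05) and 1 other was called lower (-0.55, adjusted p = 0.00115 over all probe sets), while the remaining 4 lay between -0.11 and 0.17. Timp4, named after its value was seen, differed by -0.10 (95% interval -0.38 to 0.18) on dim readings. The promoter windows of the 2 TIMP genes that rose are given from the same RefSeq table, with the same capitals.
Timp1, chrX:20869916-20870215, plus strand: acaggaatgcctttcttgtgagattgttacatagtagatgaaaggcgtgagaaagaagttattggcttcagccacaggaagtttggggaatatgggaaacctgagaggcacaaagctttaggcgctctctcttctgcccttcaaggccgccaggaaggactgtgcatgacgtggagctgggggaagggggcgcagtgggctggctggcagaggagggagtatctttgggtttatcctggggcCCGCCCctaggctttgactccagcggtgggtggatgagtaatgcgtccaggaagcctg
Timp3, chr10:86300162-86300461, plus strand: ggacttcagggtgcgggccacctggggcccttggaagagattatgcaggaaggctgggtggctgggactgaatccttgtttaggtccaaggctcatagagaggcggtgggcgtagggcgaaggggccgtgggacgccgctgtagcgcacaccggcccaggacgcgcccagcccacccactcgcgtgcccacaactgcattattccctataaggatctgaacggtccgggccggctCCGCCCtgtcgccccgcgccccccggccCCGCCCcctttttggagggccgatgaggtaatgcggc
The GGGCGG box was found 1 time in the Timp1 window and 2 times in the Timp3 window.

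TFEB binds an E-box with the core CACGTG, so the windows of all matched members were searched for that core, for the AP-1 motif TGANTCA and for the GGGCGG box. The RefSeq table matched 47 of the 69 genes with 55 windows. The CACGTG core was in 1 gene, Fbln1, in 2 of the 55 windows (3.64%, against 7.15% of all 32851 windows). None of the 5 genes that rose and none of the 10 matched genes that fell had it. The AP-1 motif was in 1 window, that of Col6a1 (1.82%, against 7.81% of all windows), and the GGGCGG box in 32 windows (58.2%, against 35.7% of all windows). These are matches of letters within 300 bases of sequence and describe only that stretch.

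Lysyl oxidase genes showed 0 of 4 called in either direction by limma, also at an unadjusted p of 0.05. Lox read 7.59, 7.94 and 7.46 in transgenic livers and 7.35, 7.46 and 7.41 in wild-type livers, a difference of 0.25 (95% interval -0.03 to 0.54). Of the relatives, Loxl1 differed by -0.10 (95% interval -0.35 to 0.15), Loxl3 by -0.12 and Loxl4, named after its value was seen, by -0.03. With scaling to the bacterial controls Lox, Loxl1 and Loxl3 were called higher.

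The targets of TIMPs, the matrix metalloproteinases, were given from a list of 15 measured genes, of which 1 rose, 5 fell and 9 did not pass (median -0.09). Mmp12, the macrophage elastase, rose to 5.40, 5.96 and 5.77 in transgenic livers, against 3.77, 4.79 and 3.96 in wild-type livers (1.54, SE 0.26, adjusted p = 0.00309). Mmp8, the neutrophil collagenase, fell by 1.76 (SE 0.26), Mmp9, a gelatinase of myeloid cells, fell by 0.84 (SE 0.19), and Mmp2, a gelatinase of mesenchymal cells, fell by 0.59 (SE 0.15). In 12 of the 15 the mean level was among the dimmest 40% of genes. Markers of macrophages and Kupffer cells were 0 higher and 2 lower of 7 beside them (0 and 5 at an unadjusted limma p of 0.05), at a summed level of 11554 to 14832 in transgenic and 13913 to 17816 in wild-type livers. Adgre1 fell by 0.56, Marco fell by 0.56 and Csf1r read -0.36 (adjusted p = 0.0686). Their part was not tested.

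Bile duct epithelium also makes basement membrane. Of 7 cholangiocyte markers 5 rose and 0 fell, the same counts as at an unadjusted limma p of 0.05. Their summed level was 6329 to 6887 in transgenic and 3832 to 3911 in wild-type livers. The brightest markers, Cd24a and Cdh1, weighed most in that sum and are named after their values were seen. Cd24a read 11.70 ± 0.09 in transgenic and 11.01 ± 0.19 in wild-type livers. Cdh1 read 11.02 ± 0.01 in transgenic and 10.32 ± 0.03 in wild-type livers. Sox9, a transcription factor of duct cells, rose by 2.22, the adhesion protein gene Epcam by 1.94 and the keratin gene Krt7 by 1.15, while Krt19 read -0.27 and did not pass. The epithelial laminin genes Lama3 and Lamb3 fell, both on dim readings whose background is not known. The part of duct cells in the Lama3, Lamb3, Timp1, Lamb2 and Col4a1 values was not tested. Mesothelial markers, of the liver surface, were 0 higher and 1 lower of 5, also at an unadjusted limma p of 0.05, with a summed level of 426 to 521 in transgenic and 402 to 748 in wild-type livers. Among them Gpm6a read -0.58, Wt1 fell by 0.55 and Upk3b read -0.54, and only Wt1 passed.

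**Figure D3:**
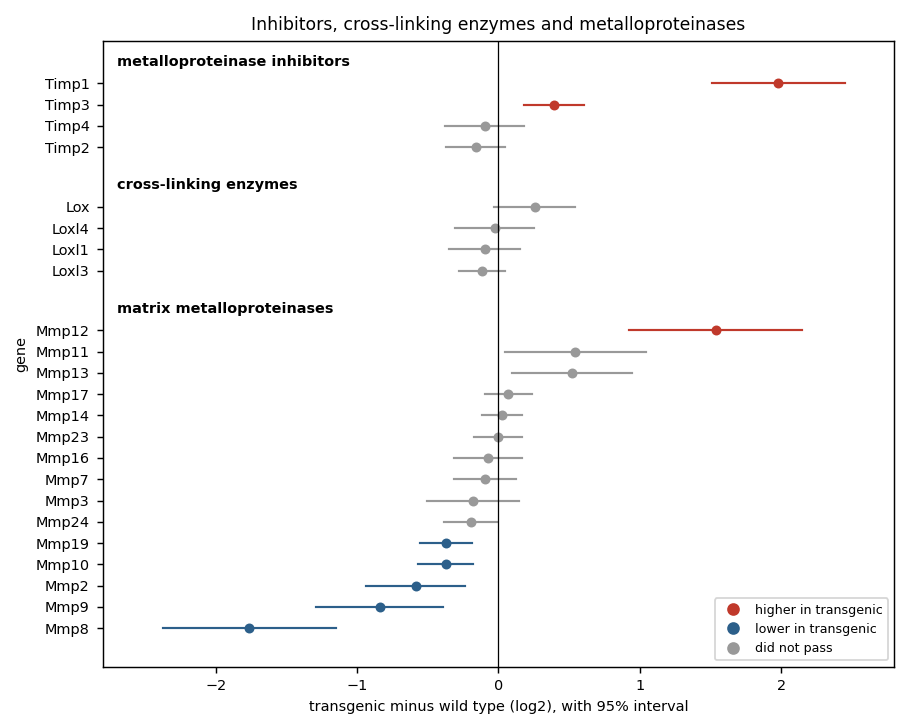
Difference between transgenic and wild-type livers (log2, horizontal axis) with its 95% interval for 4 TIMP genes, 4 lysyl oxidase genes and 15 matrix metalloproteinase genes, red where higher, blue where lower and grey where the test was not passed. Timp1 and Mmp12 lie furthest to the right and Mmp8 furthest to the left on the deposited scale.

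Of 16 enzymes that make and process collagen, 3 rose, 2 fell and 11 did not pass (median -0.07). Of all genes, 19.9% rose and 20.4% fell. P4ha2, a prolyl hydroxylase subunit, rose by 0.99 (SE 0.15), while P4ha1, the alternative subunit, fell by 0.51 (SE 0.17, adjusted p = 0.0469). Plod3, a lysyl hydroxylase that also adds sugars to collagen, rose by 0.50 (SE 0.09), and Bmp1, the protease that trims fibrillar procollagen, fell by 0.50 (SE 0.08).

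Members of the matrix group also varied between arrays of 1 group. Transgenic replicate 2 gave the highest transgenic reading for 32 of the 69 matrix genes (46.4%), against 33.8% of all genes, and transgenic replicate 3 for 12 (17.4%), against 31.5%. For the fibrillar collagens the counts were 6 of 9 in transgenic replicate 2 and 0 of 9 in transgenic replicate 3. Among wild-type arrays, replicate 2 gave the highest reading for 31 of 69 (44.9%), against 28.4% of all genes. Acta2 and Tagln followed the same order in the transgenic arrays, at 10.58, 10.89 and 10.10 and at 9.30, 9.78 and 8.95. Without transgenic replicate 2 the counts over the matrix genes were 2 higher and 13 lower, and without transgenic replicate 1 they were 5 higher and 15 lower.

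**Figure D4:**
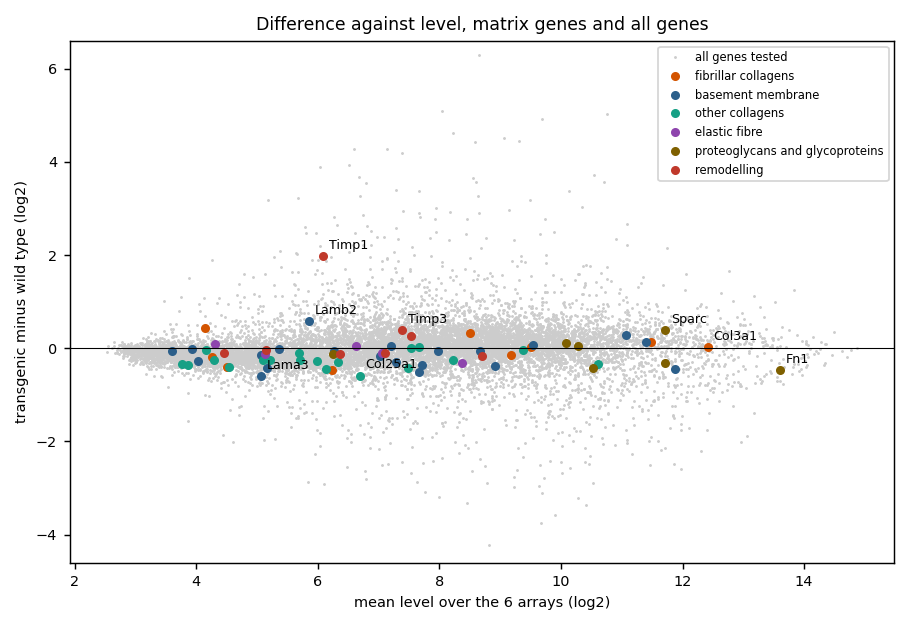
Difference between transgenic and wild-type livers (log2, vertical axis) against mean level over the 6 arrays (log2, horizontal axis) for all 12393 genes in grey and the matrix genes coloured by role. Apart from Timp1 at 1.98, the matrix genes lie within the dense band of all genes, between -0.60 and 0.58 on the deposited scale.

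Probe sets of the same gene gave a check within the arrays. Of the 35 matrix genes with more than 1 probe set, 27 had all differences of 1 sign and 8 had both signs. Over all 20380 probe sets 18.7% were called higher and 17.6% lower, and of the 116 matrix probe sets 7 were higher and 30 lower. No matrix gene had probe sets called in both directions, which was also rare over all genes (102 of 4956 with more than 1 probe set). Among the matrix genes 18 had some sets called and others not. In Col18a1, Col14a1, Sparc and Fn1 every probe set was called the same way. Of the genes that did not pass on the brightest set, 9 had another set called: Col5a1, Col4a6, Hspg2, Lamc3, Col4a5, Col20a1, Col6a2 and Timp2 lower, and Lama5 higher.

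**Figure D5:**
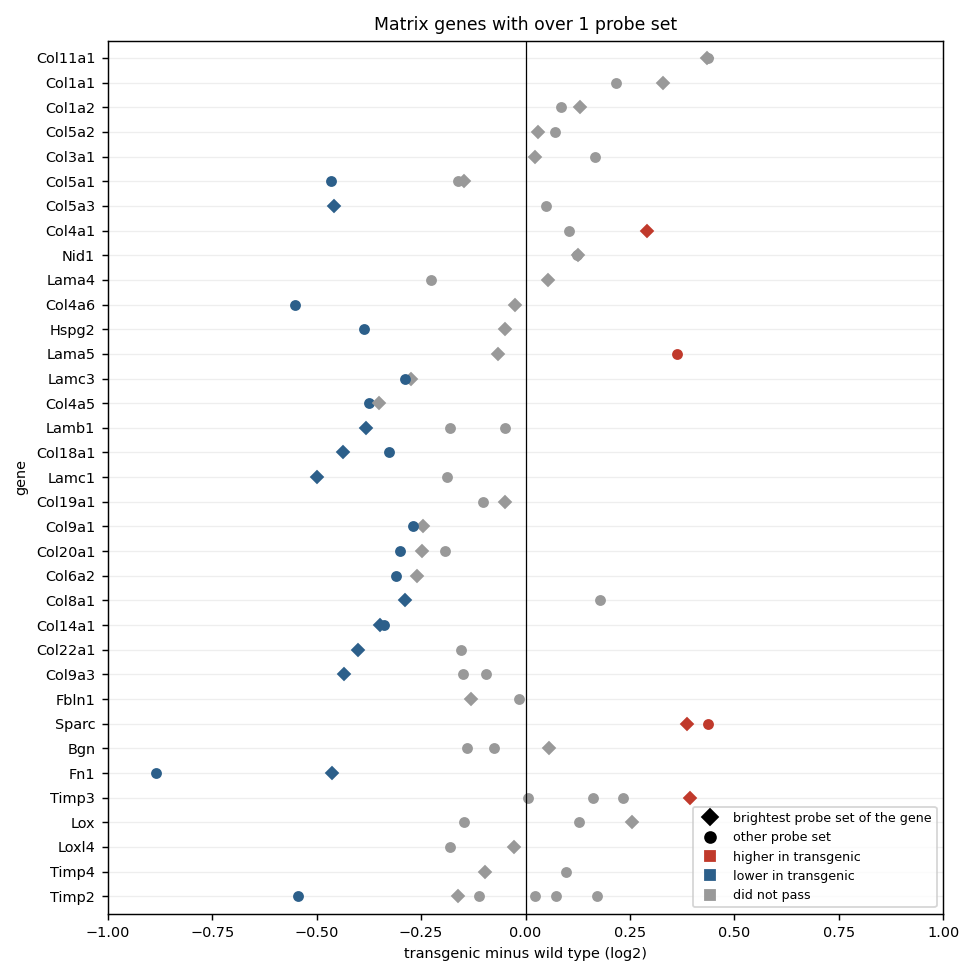
Difference between transgenic and wild-type livers (log2, horizontal axis) for each probe set of the 35 matrix genes with more than 1, diamonds marking the brightest set of a gene and colours the call over all probe sets. Fn1, Sparc, Col18a1 and Col14a1 have every set called the same way on the deposited scale, and Timp2 spreads from -0.55 to 0.17.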

How the data were processed

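Total liver RNA of 3 transgenic and 3 wild-type mice was labelled with biotin and hybridised to 1 Affymetrix array each, per the labels' protocols. The deposited log2 values, 1 per probe set and array, were made by the authors with RMA in affy, per the submitters' processing notes, which state no versions. RMA equalises the distributions of the arrays, so differences are relative to the whole array. Of 22690 probe sets, 64 were controls, 691 had several genes, 1555 had none and 20380 had exactly 1 gene. The number of arrays limits the precision.

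For each of 12393 genes the probe set of highest mean level, taken across all 6 arrays, stood for the gene. Groups came from the labelled genotype, and the comparison used lmFit and eBayes of limma 3.58.1 in R 4.3.3. P-values were adjusted by Benjamini-Hochberg across every gene, and 0.05 was the threshold. On simulated data with 200 changed genes, 58.2%, 97% and 100% of changes of 0.5, 1 and 2 (log2) were recovered, with 3 false calls among 12193 unchanged genes. In the data 40.3% of genes passed, a far larger share than was changed in the simulation. The simulated rates of recovery and of false calls therefore need not hold for the calls given here. The labels call the arrays biological replicates, so p-values measure the spread between mice as labelled.

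The members and lists were chosen with earlier results of these data known. All members past the threshold are named, with every array's value where the difference was at least 0.5. Of the other members, the 4 with the highest level in each role are named. Companion lists give up to 4 members past the threshold with the largest difference, up to 2 per direction first, and marker lists up to 3 members. Any other name is marked where it stands or belongs to a count. Summed marker levels are sums of values taken off the log2 scale. Alternatives covered the choice of probe set, dim genes, normalization, variance model, weights per array, the replicate number as a block, and each array left out.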

Additional observations from a re-analysis of the deposited data

How the results depend on the processing

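Of the 24 matrix calls, 9 (Timp1, Timp3, Fn1, Col18a1, Col25a1, Col6a1, Lama3, Lamb3 and Lamc1) were kept under every alternative that gave them a value except scaling to the bacterial controls, and 11 were kept with each array left out. Scaling to those 14 probe sets gave 7010 higher and 651 lower over all genes, 28 and 0 over the matrix genes, 4 and 0 over fibrillar collagens, 10 and 0 over basement membrane genes and 5 and 0 over remodelling genes. By construction it shifts every gene of an array alike. Of 49 matrix genes below 0 on the deposited scale, 36 were above 0 with it, 21 of them called on neither scale. The other 15 were Col4a6 (0.35), Col4a3 (0.34), Hspg2 (0.32), Lama5 (0.30), Col4a4 (0.30), Nid2 (0.0697), Col6a3 (0.34), Col19a1 (0.32), Col9a1 (0.13), Col9a2 (0.12), Col8a1 (0.0826), Col14a1 (0.0241), Dcn (0.0494), Loxl1 (0.27) and Loxl3 (0.26). Without the dimmest genes, fewer genes were tested and 1660 of all genes were lower, with 3 matrix genes higher and 10 lower, 0 fibrillar collagens lower, and 1 basement membrane and 1 remodelling gene higher. Averaging the probe sets of each gene left 1 basement membrane gene higher. With every probe set on its own, 10 basement membrane genes and 1 remodelling gene had a set called lower. Without probe sets whose names end in _s_at, _x_at or _a_at, 1 fibrillar and 2 basement membrane genes were lower. Col2a1, Lama3, Lamb3 and Nid2 had only such a set and so no value there, and Lamb1, read on another set, lost its call. Quantile normalization again gave 1 fibrillar collagen higher and 1 lower, and the trend and robust option or array weights gave 1 higher. Apart from what fewer tests, genes left without a value or the scaling itself explain, the cause was not tested.

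The deviations of same-numbered replicates from their group means had correlations of -0.10, -0.02 and 0.06. Those of differently numbered replicates ranged from -0.14 to 0.12. With 3 arrays per group these values cannot show whether the numbers pair the mice, and the labels state no pairing. With the replicate block 1 fibrillar collagen and 1 basement membrane gene were higher, and 5 matrix genes were higher and 13 lower. With 1 array left out in turn, all genes ranged from 1876 to 2411 higher and from 1890 to 2407 lower, matrix genes from 2 to 6 higher and from 11 to 18 lower, fibrillar collagens from 0 to 1 higher and from 0 to 2 lower, basement membrane genes from 0 to 2 higher and from 5 to 6 lower, and remodelling genes stayed at 2 higher and 0 lower. Matrix calls were fewest without transgenic replicate 2 (2 higher), without wild-type replicate 3 (3 higher) and without transgenic replicate 3 or wild-type replicate 2 (11 lower each).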

Other observations

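Receptors that bind matrix showed 2 higher, 9 lower and 9 not passed of 20 genes, with a median difference of -0.25, against -0.04 over all genes. Sdc2, a heparan sulfate proteoglycan of the cell surface, fell to 9.33 ± 0.07 in transgenic livers, against 10.64 ± 0.06 in wild-type livers (-1.31, limma adjusted p = 1.58e-05, n = 3 each). The integrin subunit gene Itga8, which pairs with beta 1 and is known from mesenchymal cells, fell by 0.44 on dim readings. The laminin receptor subunits Itga6 and Itga3 rose by 0.59 and 0.40. Among other genes of the list, named after their values were seen, Itgb4 fell by 0.27 on dim readings. Itgb1 (-0.06) and Dag1 (0.01) did not pass.

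Genes of the TGF-beta pathway, which drives matrix production in stellate cells, showed 4 higher, 1 lower and 13 not passed of 18. Of all genes 19.9% were higher and 20.4% lower. The median difference of the pathway genes was -0.07, against -0.04 over all genes. The ligand gene Tgfb2 rose to 6.27 ± 0.30 in transgenic livers, against 5.25 ± 0.17 in wild-type livers (1.02, limma adjusted p = 0.00186, n = 3 each), all dim readings. Smad2, a signal transducer, rose by 0.44 and Tgfbr1, a receptor, rose by 0.46. Ltbp4, a latent TGF-beta binding protein of elastic fibres, fell by 0.41. All these directions are on the deposited scale.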
